A study of Sus scrofa with 13 samples.

Results

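A set of 95 genes stood lower in dystrophin-deficient (DMD KO) than in wild-type (WT) pig muscle at 2 days of age and higher in it at 3 months. They were picked from 10283 genes with a single symbol on the array, with 1 probe set per gene, that of the highest average level on the 13 arrays. A gene was taken where the mean log2 level of DMD KO animals minus that of WT animals was -0.4 or less at 2 days and 0.4 or more at 3 months, with no overlap between the genotypes' values at either age. These conditions were met by 112 genes (1.09%), and 17 of them, mostly collagens and other matrix proteins, were left out by symbol. Since both genotype differences chose the genes, they are given as a description, and no test of them is read as a result.

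The arrays measured RNA of the biceps femoris, a thigh muscle, in German Landrace pigs, with 1 array per animal. At 2 days of age there were 4 DMD KO and 3 WT animals, and at 3 months 3 of each genotype. DMD KO animals lacked exon 52 of the dystrophin gene and were cloned by nuclear transfer from primary kidney cells modified with an altered bacterial artificial chromosome (CH242-9G11). Their tissue was sampled once they had died by themselves, whereas WT animals were killed for sampling, so genotype, cloning and manner of death cannot be told apart. The labels name no other treatment and do not say how many nuclear donor cell clones gave rise to the DMD KO animals.

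Dystrophin links the actin skeleton of the muscle fibre to the basement membrane, and fibres that lack it tear during contraction. In Duchenne muscular dystrophy rounds of fibre death and regeneration are followed by the build-up of connective tissue, which fibroblasts of the muscle lay down. Fibroblasts make matrix proteins in the endoplasmic reticulum, fold and modify them there with chaperones and glycosyltransferases, and export them through the Golgi. The same cells secrete growth factors and chemokines, and they carry an actin cytoskeleton of non-muscle type. In healthy muscle the growth of connective tissue and the division of cells slow down after birth.

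Levels are log2 values as deposited, with array medians from 7.32 to 7.38. The log base was inferred from their range. Defining markers of skeletal muscle were bright: 9 measured fibre genes lay between the 96.0 and the 99.96 percentile of all genes. The brighter of 2 DMD probe sets read 12.08 to 12.30 in DMD KO and 11.53 to 12.38 in WT muscle at 2 days, and 11.53 to 11.84 in DMD KO and 11.81 to 12.01 in WT muscle at 3 months. The sources used here do not place these probe sets relative to exon 52, so they check no label. WT replicate 3 at 2 days stood apart, with a mean correlation of 0.918 with the other arrays, against 0.943 for the next lowest array. Its 95th percentile was 9.215, against 9.475 to 9.827 on the others. By limma's adjusted p under 0.05, 1552 of 21893 probe sets were higher and 623 lower in DMD KO muscle at 2 days. These counts were 758 and 453 without this array. Without it the median 2-day difference of the 95 genes was -0.76, and 90 of them still lay at -0.4 or less. All 95 remained below 0, which the choice of genes without overlap requires.

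The 95 genes had a median difference of -0.67 at 2 days, with a range from -1.58 to -0.40, and a median of 0.88 at 3 months, with a range from 0.40 to 2.32. Over all genes the medians were -0.02 and -0.03. At 2 days 446 genes (4.34%) stood lower in DMD KO muscle by 0.4 or more without overlap, and at 3 months 1111 genes (10.8%) stood higher in the same way. The 112 genes that met both conditions were 25.1% of the 2-day list and 10.1% of the 3-month list. In the reverse direction, 49 genes (0.477%) stood higher at 2 days and lower at 3 months. By limma's adjusted p under 0.05, 68 of the 95 were lower at 2 days, against 3.32% of all genes, and 69 were higher at 3 months, against 5.76%. Nothing is read from these counts, since the same contrasts chose the genes.

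**Figure D1:**
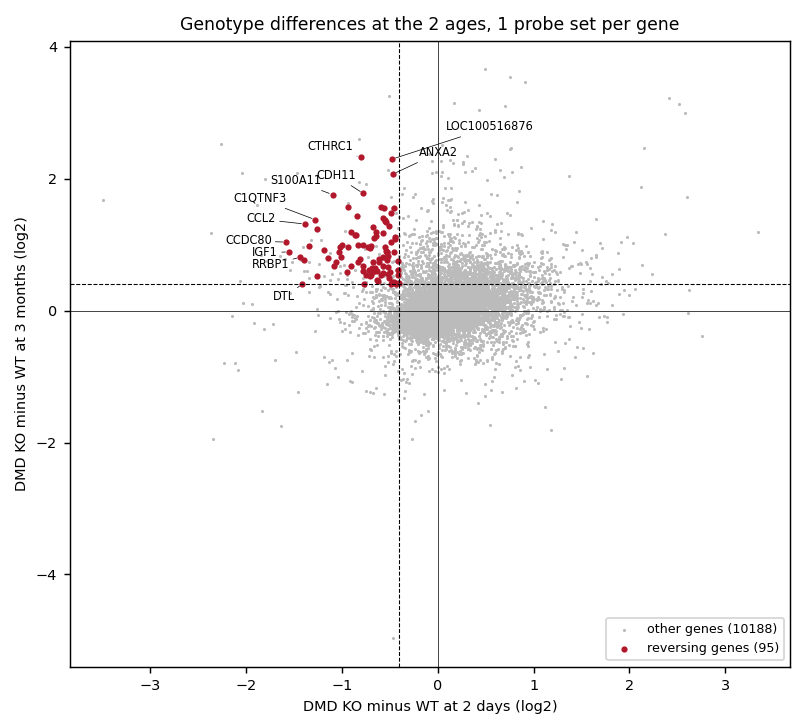
Difference in mean log2 level between DMD KO and WT at 2 days (x axis) and at 3 months (y axis) for 10283 genes, 1 point per gene. Dashed lines mark the limits of -0.4 and 0.4, and the 95 red points lie left of the vertical and above the horizontal line because they were chosen there, with CTHRC1 highest at 2.32 and CCDC80 farthest left at -1.58.

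The limits cut through a continuous range of values. Just inside them lay DPYSL3 (-0.49 at 2 days and 0.40 at 3 months), OLFML2B (-0.77 and 0.40) and MMP19 (-0.43 and 0.40). Just outside lay ALDH18A1 (-0.396 and 0.51), GLIPR2 (-0.39 and 0.59) and AIG1 (-0.38 and 0.66), which met the other conditions. The gap between the genotypes' values was under 0.1 for 16 of the 95 genes at 2 days and for 10 at 3 months, 23 in either.

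Averaged over the 95 genes, the level was 7.72, 7.78, 7.73 and 7.73 in DMD KO muscle at 2 days, against 8.39, 8.71 and 8.37 in WT muscle. At 3 months the average was 8.75, 8.80 and 8.94 in DMD KO muscle, against 8.14, 7.71 and 7.84 in WT muscle. The 4 DMD KO arrays at 2 days lay close together, and the WT arrays spread more at both ages. WT replicate 2 at 2 days was the highest of its group for 68 genes, and WT replicate 1 at 3 months for 81 genes. The median level of the genes over all arrays was 8.002, against 7.47 over all genes, and 69 of the 95 lay above that value. For 18 genes the DMD KO mean at 2 days lay below the lowest 25th percentile of an array, 6.53, where levels are dim. In whole muscle, fewer cells of a type and less RNA per cell cannot be told apart.

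**Figure D2:**
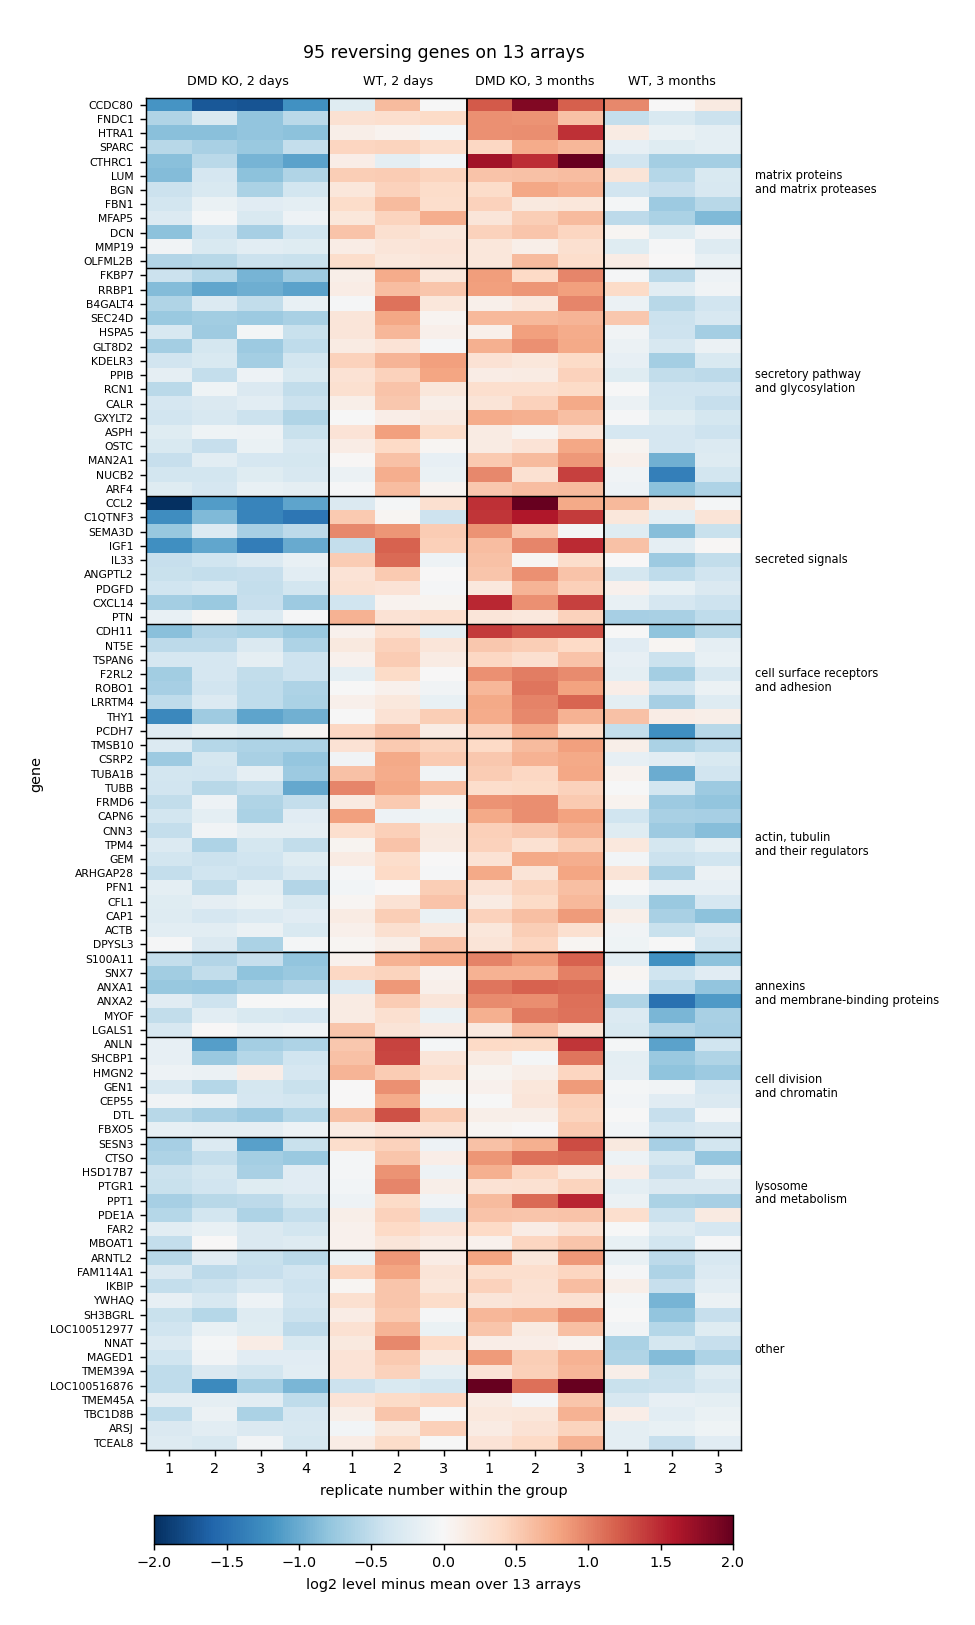
Log2 level of each of the 95 genes on each of 13 arrays minus the gene's mean over all arrays, in rows grouped by the role of the gene product and columns grouped by genotype and age. Blue (lower) fills the DMD KO columns at 2 days and much of WT at 3 months, and red (higher) fills DMD KO at 3 months and most of WT at 2 days, with the deepest colours for CCL2, CCDC80, CTHRC1 and the unnamed locus LOC100516876.

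The products of the 95 genes were sorted by hand into 9 roles after the genes were known: 12 matrix proteins and proteases, 16 proteins of the secretory pathway and glycosylation, 9 secreted signals, 8 cell surface receptors and adhesion proteins, 15 proteins of the actin and tubulin skeletons, 6 annexins and other membrane-binding proteins, 7 of cell division and chromatin, 8 of the lysosome and metabolism, and 14 others. The 12 genes given array by array are the first by the smaller of their 2 absolute differences.

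The 9 secreted signals included CCL2 and C1QTNF3, which come first in that order. CCL2, the chemokine that draws monocytes into tissue, had log2 levels of 5.80, 6.72, 6.51 and 6.78 in DMD KO muscle at 2 days, against 7.55, 7.80 and 8.16 in WT muscle. At 3 months CCL2 stood at 9.30, 10.37 and 8.59 in DMD KO muscle, against 8.49, 8.03 and 7.80 in WT muscle. The genotypes were well apart at 2 days and nearly touched at 3 months, where DMD KO replicate 2 was far above the other two. CCL2 was thus 2.61-fold lower at 2 days and 2.48-fold higher at 3 months, and without that replicate its 3-month difference was 0.84 in place of 1.31. C1QTNF3, a secreted relative of complement C1q, had 6.76, 7.12, 6.69 and 6.55 in DMD KO muscle at 2 days, against 8.53, 8.05 and 7.60 in WT muscle. At 3 months C1QTNF3 reached 9.42, 9.61 and 9.40 in DMD KO muscle, against 8.23, 7.81 and 8.26 in WT muscle. Its WT values were alike at both ages, and its DMD KO values lay on either side of them. SEMA3D, a secreted guidance cue of the semaphorin family, had 5.61, 6.10, 5.71 and 5.85 in DMD KO muscle at 2 days, against 7.34, 7.26 and 6.89 in WT muscle. At 3 months SEMA3D had 7.26, 6.92 and 6.34 in DMD KO muscle, against 6.14, 5.52 and 5.92 in WT muscle. Here the WT values at the 2 ages were far apart, and DMD KO replicate 3 at 3 months came close to WT.

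IGF1, the growth factor that drives muscle growth, averaged 7.29 ± 0.17 in DMD KO and 8.84 ± 0.83 in WT muscle at 2 days (SD, n = 4 and 3). At 3 months IGF1 averaged 9.48 ± 0.44 in DMD KO and 8.59 ± 0.40 in WT muscle (SD, n = 3 each). The WT spread at 2 days was wide, from 7.97 on replicate 1 to 9.63 on replicate 2. As the choice of genes requires, it lay above every DMD KO array, the highest of which read 7.45. CXCL14, a chemokine, stood at 8.90 to 9.50 in DMD KO muscle at 3 months, against 7.59 to 7.85 in WT muscle. Its 2-day difference was -0.57 and its 3-month difference 1.56. IL33, an alarm cytokine set free by damaged cells, differed by -0.83 at 2 days and 0.73 at 3 months. Without WT replicate 2 at 2 days its 2-day difference was -0.52. ANGPTL2, an angiopoietin-like secreted protein, differed by -0.67 and 1.09, PDGFD, a platelet-derived growth factor, by -0.57 and 0.57, and PTN, the growth factor pleiotrophin, by -0.54 and 0.91. CXCL14, IL33, ANGPTL2, PDGFD and PTN fall outside the order above and are named after their values were seen, as are other genes below that are neither among the first 24 nor in a gene list.

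The 12 matrix genes averaged 8.43 ± 0.08 in DMD KO and 9.31 ± 0.05 in WT muscle at 2 days (SD, n = 4 and 3). At 3 months they averaged 9.75 ± 0.08 in DMD KO and 8.79 ± 0.16 in WT muscle (SD, n = 3 each). The SDs are over arrays. On this average the 4 groups did not overlap, which the choice of genes requires between the genotypes within each age. CCDC80, a secreted protein that binds the matrix, had 7.33, 6.81, 6.77 and 7.28 in DMD KO muscle at 2 days, against 8.26, 9.14 and 8.49 in WT muscle. At 3 months CCDC80 had 9.73, 10.36 and 9.70 in DMD KO muscle, against 9.47, 8.52 and 8.68 in WT muscle. It was 2.99-fold lower at 2 days, the widest 2-day difference of the 95, and WT replicate 1 at 3 months came near the DMD KO arrays. FNDC1, a secreted protein with fibronectin type III domains, had 7.32, 7.61, 7.12 and 7.37 in DMD KO muscle at 2 days, against 8.23, 8.25 and 8.30 in WT muscle. At 3 months FNDC1 had 8.83, 8.81 and 8.51 in DMD KO muscle, against 7.44, 7.61 and 7.49 in WT muscle. Both WT groups were tight, and the DMD KO arrays at 2 days overlapped the WT arrays at 3 months.

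CTHRC1, a secreted glycoprotein made by activated fibroblasts, had the widest 3-month difference of the 95, at 8.29, 8.09 and 8.70 in DMD KO muscle, against 6.23, 5.94 and 5.94 in WT muscle. The means were 5.01-fold apart, with the WT mean below 6.53, where levels are dim. At 2 days CTHRC1 was low in both genotypes, at 5.54 to 6.07 in DMD KO muscle, against 6.42 to 6.75 in WT muscle. HTRA1, a secreted serine protease that cleaves matrix proteins, differed by -0.87 at 2 days and 1.15 at 3 months. SPARC, a collagen-binding protein of growing tissue, differed by -1.01 and 0.81. Small leucine-rich proteoglycans coat collagen fibrils and help to set their width. Of these LUM differed by -1.14 and 0.80, BGN by -0.78 and 0.999 and DCN by -0.95 and 0.58. LUM and DCN are adjacent in the pig genome. DCN was the brightest gene of the role, at 10.73 to 11.16 in DMD KO muscle at 2 days, against 11.79 to 12.12 in WT muscle. At 3 months DCN stood at 11.99 to 12.12 in DMD KO muscle, against 11.31 to 11.59 in WT muscle. FBN1, the main protein of microfibrils, differed by -0.68 and 0.73, and MFAP5, which binds to microfibrils, by -0.65 and 1.13. For these 2 genes the DMD KO level at 3 months was -0.16 and -0.01 from the WT level at 2 days.

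**Figure D3:**
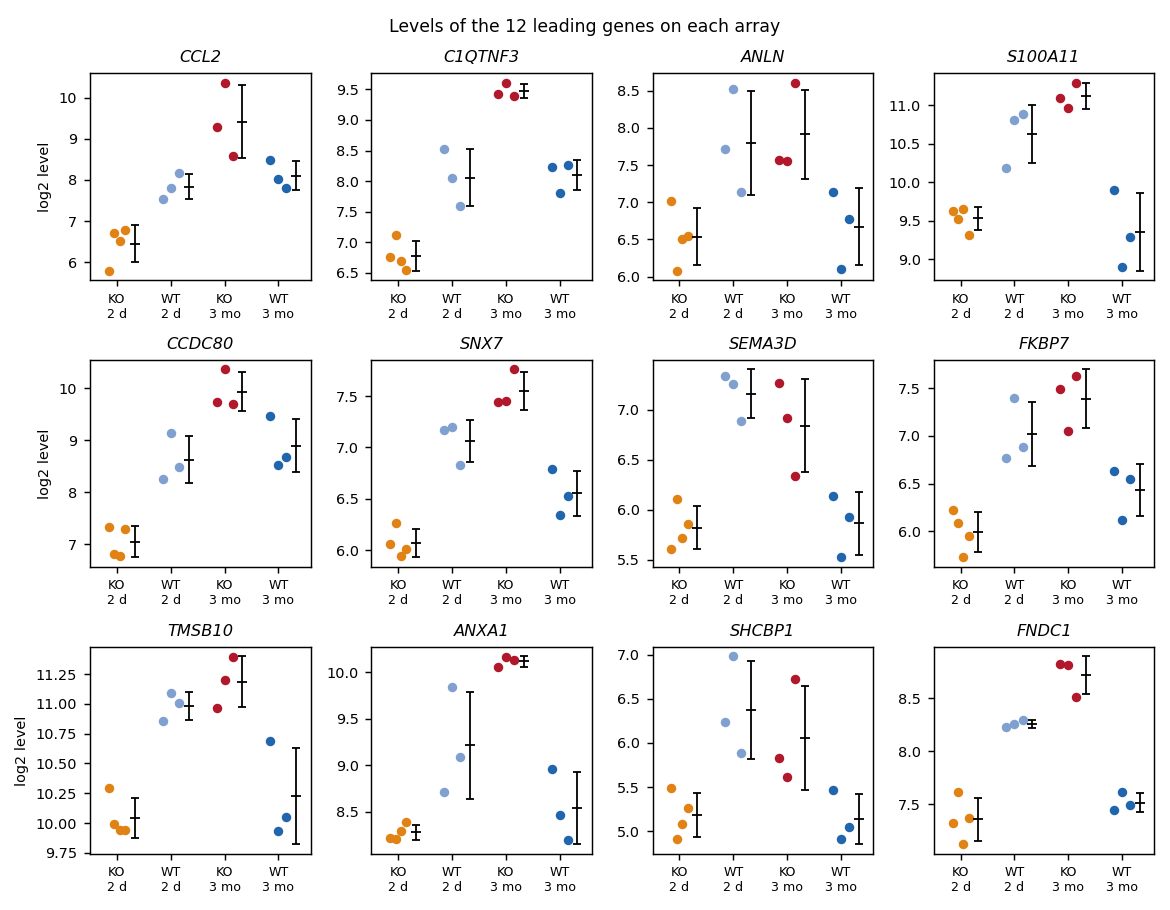
Log2 level on each array (points, replicates in order) with mean and SD (bars) for the 12 leading genes, with DMD KO left of WT at each age and a y axis of its own for each gene. In every panel the DMD KO points lie below WT at 2 days and above it at 3 months, as the choice of genes requires. The distance between the WT groups varies, from close for CCL2 and C1QTNF3 to wide for SEMA3D and S100A11.

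The genes left out by symbol were mostly collagens and other matrix proteins, so a ranking of the roles by size depends on that omission. Among the genes kept, the secretory pathway was the largest role, with 16 genes that span folding, glycosylation and transport. It averaged 7.73 ± 0.03 in DMD KO and 8.48 ± 0.25 in WT muscle at 2 days (SD, n = 4 and 3), and 8.71 ± 0.14 in DMD KO and 7.86 ± 0.26 in WT muscle at 3 months (SD, n = 3 each). FKBP7, a prolyl isomerase of the endoplasmic reticulum, had 6.22, 6.09, 5.73 and 5.95 in DMD KO muscle at 2 days, against 6.77, 7.40 and 6.88 in WT muscle. At 3 months FKBP7 had 7.49, 7.05 and 7.63 in DMD KO muscle, against 6.63, 6.12 and 6.55 in WT muscle. No values of the genotypes overlapped, as the choice of genes requires. WT replicate 2 was the highest WT array at 2 days and the lowest at 3 months, which are different animals. RRBP1, which holds ribosomes on the membrane of the reticulum, had the widest 2-day difference of the role, -1.43, with 8.93 to 9.14 in DMD KO and 10.17 to 10.63 in WT muscle. Its 3-month difference was 0.81.

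Chaperones and folding enzymes of the reticulum came next. HSPA5, the chaperone BiP and a target of the unfolded protein response, differed by -0.71 at 2 days and 0.94 at 3 months. PPIB, which isomerises prolines of procollagen, differed by -0.78 and 0.68, CALR, a calcium-binding chaperone, by -0.58 and 0.81, and RCN1, a calcium-binding resident, by -0.72 and 0.61. Transport was represented by SEC24D, a coat protein of the vesicles that carry procollagen, with -1.06 and 0.73, and by KDELR3, a receptor that returns resident proteins to the reticulum, with -1.08 and 0.68. ARF4, a small GTPase of the Golgi, differed by -0.44 and 1.11. The enzymes that build or trim glycans were B4GALT4 (-0.81 and 0.78), GLT8D2 (-0.70 and 0.98), GXYLT2 (-0.53 and 0.90), MAN2A1 (-0.49 and 1.05) and OSTC (-0.50 and 0.59), the last a subunit of the oligosaccharyltransferase. Without WT replicate 2 at 2 days the 2-day differences were -0.48 for B4GALT4, -0.27 for MAN2A1, -0.24 for ARF4 and -0.20 for NUCB2, a calcium-binding secretory protein that differed by -0.49 with all arrays. Without DMD KO replicate 3 at 3 months the 3-month difference of B4GALT4 was 0.51.

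The 8 cell surface genes were mostly adhesion proteins and guidance receptors. They averaged 7.85 ± 0.10 in DMD KO and 8.54 ± 0.16 in WT muscle at 2 days (SD, n = 4 and 3), and 9.16 ± 0.06 in DMD KO and 8.10 ± 0.22 in WT muscle at 3 months (SD, n = 3 each). CDH11, a cadherin of mesenchymal cells, had 9.96, 9.83 and 9.82 in DMD KO muscle at 3 months, against 8.54, 7.74 and 7.996 in WT muscle, and was 3.42-fold higher. Its 2-day difference was -0.78. F2RL2, a protease-activated receptor, differed by -0.55 at 2 days and 1.36 at 3 months. LRRTM4, known as a synaptic adhesion protein of the brain, differed by -0.54 and 1.35, PCDH7, a protocadherin, by -0.51 and 1.29, and ROBO1, a receptor for Slit guidance cues, by -0.55 and 0.97. THY1, a surface marker of fibroblasts, ran the other way round, with the wider difference of -1.26 at 2 days and 0.52 at 3 months. NT5E, the ectoenzyme that makes adenosine, differed by -0.78 and 0.60. A second NT5E probe set, not used for the choice, differed by -1.02 and 0.93, also without overlap. It read the same RNA samples, with a correlation of 0.946 with the first, and is no independent evidence.

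Of the 15 cytoskeletal genes, most act on actin. TMSB10, which sequesters actin monomers, had 10.29, 9.99, 9.94 and 9.94 in DMD KO muscle at 2 days, against 10.86, 11.09 and 11.01 in WT muscle. At 3 months TMSB10 had 10.96, 11.20 and 11.39 in DMD KO muscle, against 10.69, 9.94 and 10.05 in WT muscle. WT replicate 1 at 3 months stood above the other two and came close to the DMD KO arrays. ACTB, cytoplasmic actin, differed by -0.42 at 2 days and 0.62 at 3 months, PFN1, which loads actin with ATP, by -0.52 and 0.55, and CFL1, which severs filaments, by -0.51 and 0.82. CAP1, which recycles actin monomers, differed by -0.45 and 1.08. Filament-binding proteins were CNN3, a calponin (-0.57 and 1.18), TPM4, a tropomyosin (-0.70 and 0.53), and CSRP2, a LIM protein known from smooth muscle (-1.03 and 0.89). Without WT replicate 2 at 2 days the difference of CAP1 was -0.29, and without WT replicate 3 that of DPYSL3, a protein of growth cones that also binds tubulin, was -0.32.

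Tubulin was represented by TUBB, with -1.39 at 2 days and 0.76 at 3 months, and by TUBA1B, with -0.83 and 0.999. The other TUBA1B probe set, which was dimmer, differed by -0.46 and -0.10, with overlap at both ages, so the 2 probe sets disagree at 3 months. CAPN6, a calpain relative that stabilises microtubules, differed by -0.57 and 1.40. Its 2-day difference was -0.27 without WT replicate 1. FRMD6, a FERM protein of the Hippo pathway, differed by -0.68 and 1.27. Actins, tubulins, TMSB10, PFN1, YWHAQ and HMGN2 belong to families with near-identical copies, which a probe set may not tell apart.

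The 6 annexins and membrane-binding proteins averaged 8.46 ± 0.05 in DMD KO and 9.19 ± 0.18 in WT muscle at 2 days (SD, n = 4 and 3), and 9.76 ± 0.10 in DMD KO and 8.29 ± 0.33 in WT muscle at 3 months (SD, n = 3 each). S100A11, a calcium-binding partner of annexins, had 9.63, 9.52, 9.65 and 9.32 in DMD KO muscle at 2 days, against 10.19, 10.81 and 10.88 in WT muscle. At 3 months S100A11 had 11.10, 10.96 and 11.29 in DMD KO muscle, against 9.89, 8.90 and 9.29 in WT muscle. All values kept a wide gap at both ages, and the gene was 2.14-fold lower and 3.38-fold higher. ANXA1, an annexin that seals membrane tears and dampens inflammation, had 8.22, 8.21, 8.30 and 8.39 in DMD KO muscle at 2 days, against 8.71, 9.84 and 9.09 in WT muscle. At 3 months ANXA1 had 10.05, 10.16 and 10.13 in DMD KO muscle, against 8.96, 8.47 and 8.20 in WT muscle. The DMD KO arrays were tight at both ages. WT replicate 2 at 2 days was high, and without it the difference was -0.62 in place of -0.93. ANXA2, a membrane-repair annexin, was 4.20-fold higher at 3 months, with 11.37 to 11.55 in DMD KO and 8.95 to 9.84 in WT muscle. Its 2-day difference was -0.47. MYOF, a ferlin of myoblast fusion and membrane repair, differed by -0.45 and 1.56, and LGALS1, a galectin, by -0.45 and 0.88. SNX7, a sorting nexin, had 6.06, 6.26, 5.94 and 6.01 in DMD KO muscle at 2 days, against 7.17, 7.19 and 6.83 in WT muscle. At 3 months SNX7 had 7.44, 7.45 and 7.76 in DMD KO muscle, against 6.79, 6.35 and 6.53 in WT muscle, so that its 2 differences were -0.997 and 0.996.

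The 7 genes of cell division and chromatin were the only role whose average in DMD KO muscle at 3 months lay below that in WT muscle at 2 days. They averaged 6.42 ± 0.12 in DMD KO and 7.29 ± 0.37 in WT muscle at 2 days (SD, n = 4 and 3), and 7.13 ± 0.35 in DMD KO and 6.46 ± 0.23 in WT muscle at 3 months (SD, n = 3 each). ANLN, the anillin of the cleavage furrow, had 7.01, 6.08, 6.50 and 6.55 in DMD KO muscle at 2 days, against 7.72, 8.53 and 7.14 in WT muscle. At 3 months ANLN had 7.57, 7.56 and 8.61 in DMD KO muscle, against 7.13, 6.11 and 6.78 in WT muscle. WT replicate 2 at 2 days and DMD KO replicate 3 at 3 months stood well above their groups. SHCBP1, a protein of the midbody, had 5.49, 4.92, 5.08 and 5.26 in DMD KO muscle at 2 days, against 6.24, 6.98 and 5.89 in WT muscle. At 3 months SHCBP1 had 5.84, 5.62 and 6.73 in DMD KO muscle, against 5.46, 4.91 and 5.05 in WT muscle. The same 2 arrays were the high ones, and without DMD KO replicate 3 its 3-month difference was 0.59 in place of 0.92. DTL, which controls the licensing of replication, differed by -1.41 at 2 days and 0.40 at 3 months. Without WT replicate 2 at 3 months its 3-month difference was 0.26. CEP55, a protein of the last step of cytokinesis and a genomic neighbour of MYOF, differed by -0.45 and 0.43, and by -0.20 at 2 days without WT replicate 2. FBXO5, an inhibitor of the anaphase-promoting complex, differed by -0.40 and 0.42, and by 0.25 at 3 months without DMD KO replicate 3. HMGN2, a nucleosome-binding protein, differed by -0.62 and 0.78.

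Among the 8 lysosomal and metabolic genes, CTSO, a cathepsin, differed by -0.84 at 2 days and 1.44 at 3 months. PPT1, the lysosomal palmitoyl-protein thioesterase, had 9.76, 10.26 and 10.65 in DMD KO muscle at 3 months, against 9.00, 8.49 and 8.46 in WT muscle, and differed by -0.59 at 2 days. SESN3, a sestrin that restrains mTORC1, differed by -0.86 and 1.14. HSD17B7, an enzyme of cholesterol synthesis, differed by -0.67 and 0.61, and by -0.34 at 2 days without WT replicate 2. Of the 14 others, LOC100516876, a locus with no name in the annotation, stood at 8.44, 7.05 and 8.05 in DMD KO muscle at 3 months, against 5.50, 5.53 and 5.62 in WT muscle, a 4.91-fold difference from a dim WT level. At 2 days it was dim in both genotypes, at 4.68 to 5.44 in DMD KO and 5.52 to 5.65 in WT muscle. MAGED1, a regulator of cell death and differentiation, differed by -0.55 and 1.37. NNAT, the imprinted gene neuronatin, differed by -0.64 and 0.59, and by -0.41 at 2 days without WT replicate 2. YWHAQ, an adaptor that binds phosphorylated proteins, differed by -0.66 and 0.64, and by 0.36 at 3 months without WT replicate 2.

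The change of sign between the ages had a WT side and a DMD KO side, and both rest on the arrays that chose the genes, so they are described without a test. From the younger to the older animals, the 95 genes had a median difference of -0.58 in WT muscle (3 months minus 2 days), with a range from -1.38 to 0.27 and 91 genes below 0. In DMD KO muscle the median age difference was 0.95, with a range from 0.23 to 2.97 and all 95 genes above 0. The corresponding medians over all genes were -0.01 in each genotype. In WT muscle 57 of the 95 stood lower at 3 months by 0.4 or more without overlap, against 2.95% of all genes. In DMD KO muscle 91 stood higher at 3 months in the same way, against 8.01% of all genes. Both held for 53 genes, 38 met the limit in DMD KO muscle alone and 4 in WT muscle alone.

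The count of genes that met the limit in WT muscle varied by role, again as a description. The roles are small, their genes were read on the same arrays, and a difference between roles was not tested. All 7 genes of cell division and chromatin, 5 of 6 annexins and membrane-binding proteins and 9 of 12 matrix genes were lower in WT muscle at 3 months than at 2 days by the limit above. For the secreted signals this held for 3 of 9, the other 6 including CCL2, C1QTNF3, IGF1 and CXCL14. The remaining roles lay between, with 9 of 16 secretory pathway genes, 8 of 15 cytoskeletal genes and 5 of 8 cell surface genes. It held for 4 of 8 lysosomal and metabolic genes and 7 of 14 others. In DMD KO muscle all genes of every role were higher at 3 months by that limit except 2 of cell division and chromatin, 1 of the secretory pathway and 1 of the others. CCL2 had the widest DMD KO age difference, 2.97, a 7.81-fold higher mean at 3 months, while its WT age difference was 0.27. CCDC80 followed with 2.88 in DMD KO and 0.26 in WT muscle, and C1QTNF3 had 2.70 and 0.04. At the other end HMGN2 had 0.31 in DMD KO and -1.09 in WT muscle, and PTN 0.40 and -1.05. ANXA2 had the widest WT age difference, -1.38, and 1.15 in DMD KO muscle. CDH11 had 2.01 in DMD KO and -0.54 in WT muscle, and THY1 1.81 and 0.03.

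**Figure D4:**
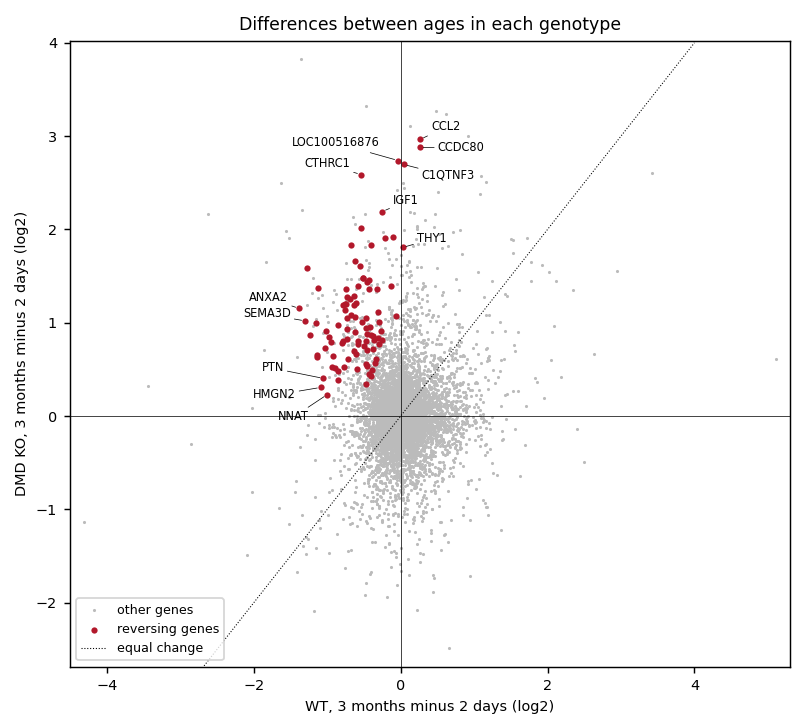
Difference in mean log2 level between 3 months and 2 days in WT (x axis) and in DMD KO (y axis), 1 point per gene, with a dotted line where both are equal. The 95 red points lie above 0 on the y axis, and all but 4 lie left of 0 on the x axis. CCL2, CCDC80 and C1QTNF3 are high on the y axis with a WT difference near 0, and HMGN2 and PTN are the reverse.

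Ranked by group mean, 51 of the 95 genes were lowest in DMD KO at 2 days, then WT at 3 months, then WT at 2 days, and highest in DMD KO at 3 months. The lowest group was DMD KO at 2 days for 64 genes and WT at 3 months for 31. The highest group was DMD KO at 3 months for 75 genes and WT at 2 days for 20. In 71 genes the DMD KO mean at 2 days lay within 0.4 of the WT mean at 3 months, against 81.1% of all genes. In 58 genes the DMD KO mean at 3 months lay within 0.4 of the WT mean at 2 days, against 80.2% of all genes. The choice of genes bears on these orders and counts, which are given as a description.

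Set directly against each other, DMD KO muscle at 3 months stood above WT muscle at 2 days without overlap for 30 of the 95 genes, against 15.1% of all genes. It stood below for 5, TUBB, YWHAQ, KDELR3, NNAT and DTL, against 10.3% of all genes. By role the 30 included 5 of 12 matrix genes, 5 of 8 cell surface genes, 5 of 6 annexins and membrane-binding proteins, and none of the 7 genes of cell division and chromatin. The median of this difference was 0.23 over the 95 genes. LOC100516876 reached 2.26, CTHRC1 1.78, CCL2 1.58 and C1QTNF3 1.42, whereas DTL had -0.56. DMD KO muscle at 2 days stood below WT muscle at 3 months for 21 genes, against 9.58% of all genes, and above it for 6, ANXA2, MFAP5, PCDH7, MAGED1, PTN and NNAT, against 16.2%. CCDC80 at -1.84, CCL2 at -1.65, C1QTNF3 at -1.32, IGF1 at -1.30 and THY1 at -1.29 lay lowest. These comparisons differ in age and genotype together. They also use the arrays that chose the genes. The counts and their split by role are therefore a description, and nothing is read from the shares of all genes beside them.

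**Figure D5:**
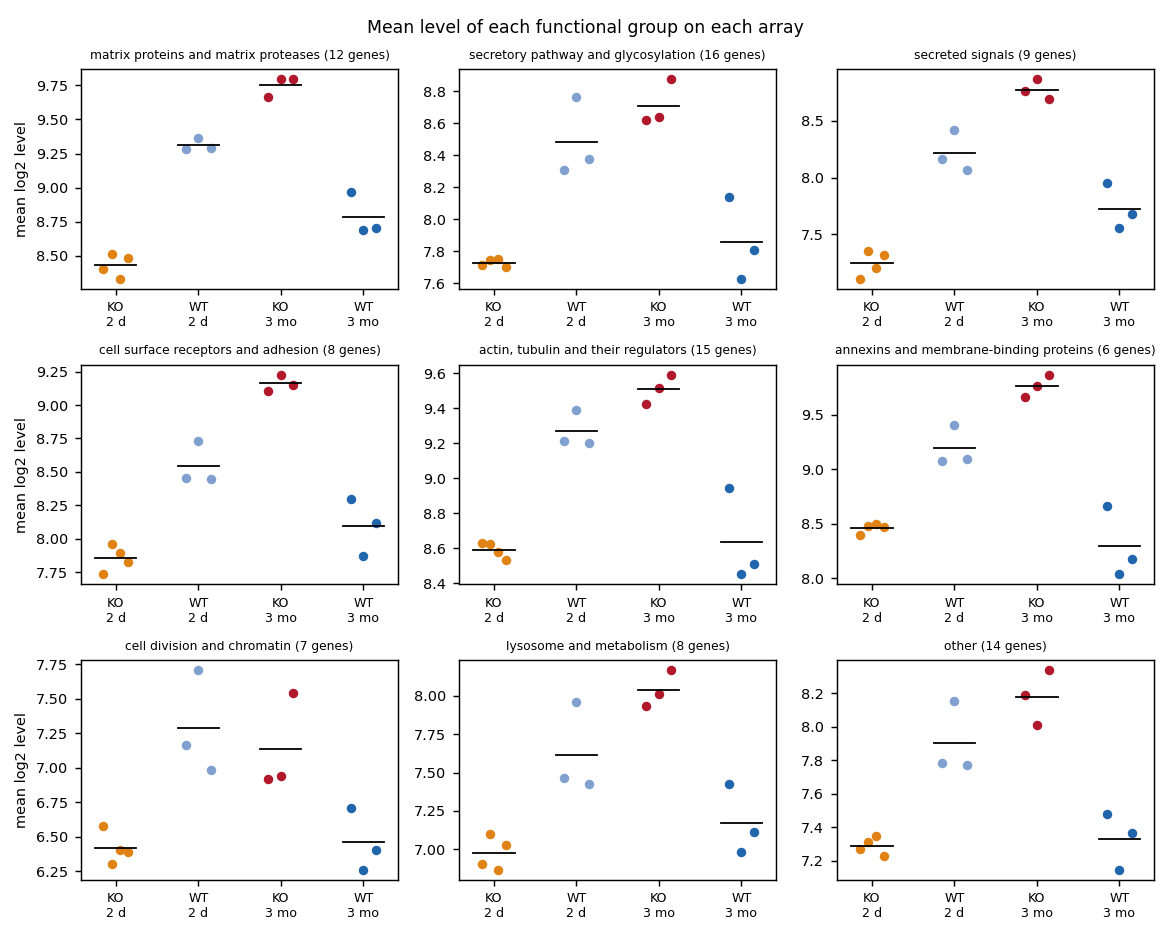
Mean log2 level over the genes of each role on each array (points) and per group (lines), with DMD KO left of WT at each age and a y axis of its own for each panel. Within each age the genotypes separate in every panel, as the choice of genes requires. For matrix proteins and secreted signals all 4 groups separate, with DMD KO at 3 months on top. For cell division WT at 2 days and DMD KO at 3 months lie side by side, each with 1 high array.

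The surroundings of the 95 genes were read from 18 gene lists of pathways and cell types, of which 174 measured genes were not among the 95. The lists were chosen with earlier results of these data known. Their counts are therefore no independent evidence, and no enrichment is read from the shares of all genes set beside them. At 2 days 32 of these (18.4%) were lower and 9 (5.17%) higher in DMD KO muscle at limma's adjusted p under 0.05, against 3.32% and 8.06% of all genes. At 3 months 29 (16.7%) were higher and 5 (2.87%) lower, against 5.76% and 1.6%. The change of the DMD KO minus WT difference between the ages (3 months minus 2 days) was above 0 by limma's interaction term for 33 of the 174 and below 0 for 4 (ATF4, RGS5, DLK1 and RSPO3), against 3.75% and 2.41% of all genes. The count of 32 rested in part on single arrays: it was 15 without DMD KO replicate 2 at 2 days, 15 without replicate 4 and 19 without replicate 3, and 14 of the 32 genes stayed called in every fit that dropped 1 array. Of the 29 genes 19 did. Only MEST, an imprinted gene of fetal growth, was called in both, by limma with a difference of -0.82 (adjusted p = 0.0428) in the younger animals and 2.61 (adjusted p = 6.65e-05) in the older ones. Its 2-day values overlapped between the genotypes, and that call was lost in 9 of 13 fits that each left out 1 array.

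Of 30 measured genes of matrix assembly and crosslinking 7 were among the 95, and of the other 23 genes 3 fell and 1 rose at 2 days, and 3 rose at 3 months. The genes lower at 2 days were NID2, a basement membrane protein (-0.71, adjusted p = 0.00527 by limma), FKBP10, a collagen chaperone (-0.68, adjusted p = 0.00456), and TGFBI, a matrix adhesion protein (-0.43, adjusted p = 0.0311). None of them passed the test at 3 months. The genes higher at 3 months were THBS1, a matrix protein that activates TGF-beta (2.10, adjusted p = 8.67e-05), PLOD2, which hydroxylates collagen lysines (1.87, adjusted p = 0.0054), and TNC, a matrix protein of wounds (1.55, adjusted p = 0.000182). THBS1 was also higher at 2 days (0.77, adjusted p = 0.0267 by limma). Without WT replicate 3 at 2 days limma gave an adjusted p of 0.126 for TGFBI and of 0.0811 for THBS1 at that age. The median of the 23 was -0.18 at 2 days and 0.08 at 3 months.

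Of 14 measured genes of procollagen secretion SEC24D and KDELR3 were among the 95, and of the other 12 genes 1 fell at 2 days and 6 rose at 3 months, with medians of -0.16 and 0.45. TRAM2, a translocon protein for collagen, was lower at 2 days (-0.48, adjusted p = 0.00549 by limma). SEC31A, a coat protein of export vesicles (0.88, adjusted p = 0.00265), SEC61A1, the pore of the translocon (0.72, adjusted p = 0.00755), and TRAM1 (0.78, adjusted p = 0.0259) were higher at 3 months. Their 2-day differences were -0.15, -0.37 and -0.58 and did not pass the test by limma (adjusted p = 0.479, 0.087 and 0.0539). Without DMD KO replicate 3 at 3 months limma gave TRAM1 an adjusted p of 0.125.

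Of 22 measured genes of mitosis and replication ANLN and CEP55 were among the 95. Of the other 20 genes 12 fell at 2 days, with a median of -0.86. The lowest was PCLAF, a partner of the replication clamp (-2.36, adjusted p = 0.0229 by limma), followed by TOP2A, a topoisomerase (-1.78, adjusted p = 0.00818), and the kinetochore proteins NDC80 (-1.59, adjusted p = 0.0213) and NUF2 (-1.42, adjusted p = 0.0346). The DMD KO means of PCLAF (5.58), NDC80 (4.87) and NUF2 (5.91) at 2 days lay below 6.53, where levels are dim. TOP2A stayed called in every fit that dropped 1 array. Without DMD KO replicate 4 at 2 days limma gave PCLAF an adjusted p of 0.069, and without replicate 2 it gave 0.0574 for NDC80 and 0.0837 for NUF2. At 3 months none of the 20 passed limma's test in either direction, and their median was 0.47. PCLAF stood at 1.17 (adjusted p = 0.326) and TOP2A at 0.75 (adjusted p = 0.304). On average over the 20 genes the levels were 6.48 to 6.76 in DMD KO and 7.26 to 7.89 in WT muscle at 2 days, and 7.02 to 7.86 in DMD KO and 6.55 to 7.22 in WT muscle at 3 months, where the groups overlapped.

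Of 12 measured genes of the cytoskeleton of dividing and motile cells 6 were among the 95. Of the other 6 genes 1 fell and 1 rose at 2 days and 3 rose at 3 months, with medians of 0.06 and 0.37. Their average at 2 days ranged from 8.53 to 8.73 in DMD KO and from 8.42 to 8.47 in WT muscle. For these 6 it was thus not lower in DMD KO muscle at 2 days. The 6 list genes among the 95, which the choice requires to be lower at 2 days, are left out of this average. It therefore does not describe the whole list, and its contrast with the 95 genes follows in part from that removal. LCP1, the plastin of white blood cells, was higher at 3 months (2.29, adjusted p = 0.000338 by limma). MYH10, a non-muscle myosin, was higher at both ages, by 1.01 at 2 days and 0.59 at 3 months (adjusted p = 0.000746 and 0.0203). Without WT replicate 2 at 3 months limma gave it an adjusted p of 0.0937 at that age. Of 9 fetal growth genes IGF1 and NNAT were among the 95. Of the other 7 genes 1 fell and 3 rose at 2 days, with a median of 0.39. At 3 months 1 of them rose, with a median of -0.09. Their average at 2 days ranged from 8.31 to 8.38 in DMD KO and from 7.97 to 8.21 in WT muscle. For these 7 it was thus higher in DMD KO muscle at the age when the 95 genes were lower. IGF1 and NNAT, which the choice of genes requires to be lower at 2 days, are left out of this average. It therefore does not describe the whole list. IGF1R, the receptor of IGF1, was higher at 2 days (1.09, adjusted p = 0.000643 by limma), when IGF1 itself stood lower, and differed by 0.41 at 3 months (adjusted p = 0.121).

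The list of cholesterol synthesis does not hold HSD17B7, described above, and none of its 10 measured genes was among the 95. At 2 days 7 of them fell, among them MSMO1 (-1.93, adjusted p = 0.000764 by limma) and SQLE (-1.91, adjusted p = 0.00361), and none passed limma's test at 3 months, with a median of -0.13. Of 8 genes of serine and one-carbon synthesis 3 fell and 1 rose at 2 days, with PSAT1 at -2.15 (adjusted p = 0.000831 by limma). The one that rose was ATF4, the transcription factor of amino acid starvation (0.59, adjusted p = 0.0136 by limma, and 0.0572 without WT replicate 3 at 2 days). At 3 months ATF4 was lower (-1.01, adjusted p = 0.000827 by limma), so that it ran opposite to the 95 genes at both ages. Of 12 Wnt and BMP modulators 1 fell and 1 rose at 2 days and 2 fell at 3 months. Of 7 genes of developing and regenerating fibres none was lower and 1 higher at 2 days, and 4 were higher at 3 months, led by ACTC1, the cardiac actin of immature fibres (3.25, adjusted p = 8.16e-06 by limma).

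Markers of cell types moved with the 95 genes in part. Of 15 measured fibroblast markers THY1, DCN, LUM and MFAP5 were among the 95. Of the other 11 none passed limma's test at 2 days and 3 were higher at 3 months, MMP2 (0.81, adjusted p = 0.00351), PRRX1 (0.70, adjusted p = 0.0306) and DPP4 (0.58, adjusted p = 0.0475). MMP2 stayed called in every fit that dropped 1 array, whereas limma gave PRRX1 an adjusted p of 0.122 without WT replicate 3 at 3 months and DPP4 0.174 without WT replicate 2. The average of the 11 ranged from 8.06 to 8.14 in DMD KO and from 8.13 to 8.27 in WT muscle at 2 days, and from 8.12 to 8.28 in DMD KO and from 7.97 to 8.09 in WT muscle at 3 months. None of 11 macrophage markers passed limma's test at 2 days, and 8 were higher at 3 months, led by LYZ (3.54, adjusted p = 0.000102) and MSR1 (3.10, adjusted p = 4.16e-05). Their average ranged from 7.25 to 7.33 in DMD KO and from 7.08 to 7.27 in WT muscle at 2 days, and from 8.16 to 8.78 in DMD KO and from 7.0045 to 7.39 in WT muscle at 3 months. Macrophage markers thus stood higher at 3 months with the 95 genes, and at 2 days their average was not lower. Of 7 tendon and cartilage markers 1 was lower at 2 days and 1 higher at 3 months by limma. None of 11 T, B and NK cell markers, 2 Schwann cell markers or 5 adipocyte markers passed limma's test at either age. Of 6 endothelial markers 1 was higher at 2 days, and of 8 smooth muscle and pericyte markers 1 was lower at 3 months. Of 9 fibre markers 2 were lower and 1 higher at 2 days and 1 was lower at 3 months. The part of any cell type in the levels of the 95 genes was not tested.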

How the data were processed

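RNA of 13 muscle samples was measured on Affymetrix whole-transcript arrays and, per the submitters' processing notes, summarised by the authors in Affymetrix Power Tools. Its version, the summary method and any scaling step are not stated in these sources. The deposited values were read as log2 levels and used unchanged. The table holds 21893 probe sets, of which 11028 carry 1 symbol, 418 several and 10447 none, and the named ones stand for 10283 genes. Arrays give no counts, so their number limits the precision.

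Groups came from the labels' genotype and age. The 95 genes were chosen by the rule given at the start, with these symbols left out: COL and a digit, KIF, SLC, ADAM, SERPIN, POSTN, ASPN, KERA, VCAN, FN1, LOX, LRRC17, ASPA, FBLN1, SFRP2, FAP and FMOD. The rule, the 18 lists and the roles were chosen with earlier results of these data known, so their counts are no independent evidence. Names follow a fixed order: the 24 genes with the largest smaller absolute difference, genes in a list, and up to 4 called list genes per direction. Others are named after their values were seen. Gene numbers of 90 of the 95 matched a RefSeq table (Sscrofa11.1), used for names and neighbours.

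Genes outside the 95 were tested in R 4.3.3 by limma 3.58.1 (a linear model over 4 groups with eBayes, 9 residual degrees of freedom, two-sided), adjusted by Benjamini-Hochberg over all probe sets and called at an adjusted p under 0.05. The script was tested on simulated data. The labels call the samples biological replicates, 1 animal each. Same-numbered animals did not deviate together (correlations from -0.35 to 0.31), so numbers were not used as pairs. Alternatives were quantile normalization, centring, the mean of a gene's probe sets, other limits, a filter on dim probe sets, fits per age, eBayes with trend, a replicate block and leaving out each array. No promoter or protein sequence was analysed here.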

Additional observations from a re-analysis of the deposited data

Results flagged for a closer look

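In 95 groups of 4 DMD KO arrays at 2 days, 3 had an array far from the others by Dixon's gap ratio, where chance flags about 1 in 20. TMSB10 read 10.291 on replicate 1, against 9.94 to 9.99 on the others. ANGPTL2 read 8.8156 on replicate 4, against 8.55 to 8.59. TMEM45A read 5.4317 on replicate 4, against 5.73 to 5.76.

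The 3-month minus the 2-day genotype difference had a median of 1.655 over the 95 genes. It was not tested, since the choice of the genes fixes its sign. For list genes outside the 95 the same quantity was tested by limma's interaction term, which passed for 37, above 0 for 33 and below 0 for 4. In the matrix list it was 0.80 for FKBP10, 0.66 for TGFBI, 1.33 for THBS1, 1.79 for PLOD2 and 1.73 for TNC. In procollagen secretion it was 0.91 for PDIA3, 1.03 for SEC31A, 1.09 for SEC61A1, 1.35 for TRAM1 and 0.58 for TRAM2. In mitosis and replication it was 3.54 for PCLAF, 2.53 for TOP2A, 2.38 for NDC80, 2.20 for NUF2, 2.37 for DLGAP5, 1.36 for MELK and 2.01 for NCAPG, the widest of them with a standard error of 0.836. Among fetal growth genes it was 3.43 for MEST. In developing and regenerating fibre it was 3.76 for ACTC1, 1.17 for NCAM1 and 0.92 for MYL4. In cholesterol, serine and one-carbon synthesis it was 2.03 for MSMO1, 2.07 for PSAT1 and 1.53 for ASNS. PRRX1 had 1.06, LCP1 1.70 and CILP 0.63. The 4 genes with the opposite sign were ATF4 at -1.60, RGS5 at -0.99, DLK1 at -0.87 and RSPO3 at -1.76. Among macrophage markers it was 2.78 for LYZ, 2.40 for MSR1, 2.15 for MRC1, 1.09 for CD86, 0.75 for TYROBP and 1.04 for C1QB. The adjusted p of these 37 interaction terms ran from 3.85e-05 for ACTC1 to 0.0484 for MYL4.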

How the results depend on the processing

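The rule gave 106 genes after quantile normalization, 88 after centring, 96 with the mean of a gene's probe sets, 116 with limits of 0.3, 46 with limits of 0.6, 154 without the condition on overlap, 70 among brighter probe sets and 94 with a replicate block. Leaving out 1 array gave 81 to 137 genes, with 78 of the 95 kept without WT replicate 2 at 2 days. The median age difference ran from -0.69 to -0.45 in WT and from 0.91 to 0.99 in DMD KO muscle when 1 array was left out. The count of 32 list genes lower at 2 days was 18 among brighter probe sets and 12 with a replicate block, and 15 to 32 when 1 array was left out. The count of 29 higher at 3 months was 20 with the block and 20 to 31 without 1 array. The block pairs animals by number only, and the causes of these shifts were not tested. Of the single values of the 95 genes 1971 stayed within the spread between replicates and 24 moved beyond it. Leaving out 1 array cannot move a difference beyond that spread in groups of this size, so those values could not count as moved. Without WT replicate 2 at 2 days, 17 of the 95 fell short of the limit of 0.4. For 13 the 2-day difference changed by a factor over 1.5. Of the single values of called list genes 1149 stayed past the threshold and 255 did not. No value changed sign under any of the alternatives run. For the 95 genes the choice without overlap fixes the sign wherever only 1 array was left out. Dim signal limits the 18 genes whose DMD KO mean at 2 days lay below the 25th percentile of the array. It also limits named list genes with a group mean that low, among them PCLAF, NDC80, NUF2, PSAT1, LYZ and MSR1.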
